A study of Homo sapiens with 15 samples.

Results

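DNA repair genes were examined in BEAS-2B cells exposed to polyethylene terephthalate nanoplastics (PET-NPLs). The 37 genes came from a list of names of repair enzymes, damage sensors and checkpoint kinases, and were matched to the gene count table through their Entrez numbers. All 37 were found among the 28395 genes of the table, and all 37 were among the 16740 genes with enough counts to be tested. They comprised 9 genes of nucleotide excision repair, 8 of base excision and single-strand break repair, 2 of mismatch repair, 6 of break sensing and homologous recombination, 4 checkpoint kinases, 3 of end joining, 2 of crosslink repair and 3 of translesion synthesis.

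BEAS-2B is an immortalised line of human bronchial epithelial cells. The exposed cells received PET-NPLs at 50 µg/mL in medium renewed every few days, and the control cells of the same passage received none. RNA was sequenced after 24 h (2 control and 2 PET samples), 15 weeks (2 and 2) and 30 weeks (3 and 4), which gives 15 samples in 6 conditions. All cells, controls included, were grown in DMEM with fetal bovine serum, non-essential amino acids and Plasmocin, an antibiotic against mycoplasma. The 24 h and 15-week samples form batch 1 of the labels and the 30-week samples batch 2, so that each PET group shares its batch with its own control, while the step from 15 to 30 weeks and the step between batches cannot be told apart. The labels do not say whether replicates came from separate cultures, and the p-values therefore measure only the spread between these samples.

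Cells hold separate systems for separate kinds of DNA damage. Nucleotide excision repair cuts out bulky lesions, either genome-wide or where a lesion has stalled RNA polymerase, while base excision repair removes single oxidised or altered bases and seals the nick. Double-strand breaks are sensed by the MRE11-RAD50-NBN complex and the kinases ATM and ATR, and are joined by homologous recombination or end joining. In airway epithelium these systems deal with the oxidative and chemical damage that inhaled material can cause.

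The libraries held 23143202 to 31459990 counts, so that 1 CPM (a count scaled to a common library size with TMM factors) stood for 23 to 31 reads. The 6 most abundant small noncoding RNAs took 9.75% to 12.9% of the counts in batch 1, 22.3% to 31.03% in the 30-week controls and 17.0% to 21.5% in the 30-week PET samples. PET replicate 2 at 30 weeks stood apart, with correlations of 0.976 to 0.981 with the other PET samples of that time against 0.991 to 0.992 among those. The marker check gave a mixed picture of the epithelial label, because the keratins KRT8 and KRT18 were abundant at 30 weeks (127 to 710 and 179 to 382 CPM), whereas KRT5 was at 0 in all 7 samples of that time and EPCAM and CDH1 stayed under 1 CPM. The 10 epithelial markers summed to 319 to 414 CPM in the 30-week controls and to 890 to 1110 CPM in the 30-week PET samples. The 8 skeletal muscle markers summed to 175 to 198 CPM in these controls and to 44.8 to 56.5 CPM in the PET samples, with MYOD1 at 65.8 to 106 CPM against 0.313 to 0.761 CPM. The 6 fibroblast markers summed to 97.8 to 182 CPM against 52.7 to 124 CPM, the 4 leukocyte markers to 23.6 to 30.7 against 11.9 to 17.4 CPM, and the 4 endothelial markers to 0.559 to 0.866 against 2.15 to 3.01 CPM. The leukocyte sum was almost entirely CD68, while the T cell marker CD3E was at 0 in all 15 samples. In the samples other than the 30-week controls, MYOD1 reached at most 5.72 CPM and CHRNA1, a muscle acetylcholine receptor subunit at 46.7 to 48.5 CPM in those controls, at most 0.456 CPM. The 30-week controls thus stood apart from all other samples in MYOD1, CHRNA1 and the epithelial, skeletal muscle and leukocyte sums. The fibroblast sums of the 30-week groups overlapped. The 30-week PET samples had the lowest skeletal muscle sums and the highest endothelial sums of all samples. The origin of the cells in the 30-week controls was not tested, and every 30-week fold between PET and control is measured against these controls. Fewer cells of a type and less RNA per cell cannot be told apart in such bulk samples, and the part of this difference between the 30-week groups in the results for repair genes was not tested.

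At 30 weeks, 11 of the 37 repair genes passed the test between PET and control (edgeR quasi-likelihood test, Benjamini-Hochberg adjusted p under 0.05 over all 16740 genes), whereas 23.7% of all genes tested did. Levels were higher in the PET cells than in the controls for 10 genes (ERCC6, XPC, DDB2, XPA, PARP1, MRE11, FANCD2, FANCI, POLK and POLH). Of all genes, 12% were called higher. Between PET and control, a rise or fall means higher or lower than the control of the same time, not a change over time. MUTYH was the 1 gene that fell, where 11.7% of all genes were called lower. The fitted change was positive in 31 of the 37 genes with a median log2 fold change of 0.27, while the median over all genes tested was 0.008. The 37 genes were chosen with earlier results of these data known, so this comparison with all genes only describes the list. Among the further 100 repair genes described below, 52 had a positive change, with a median of 0.023. An unadjusted p under 0.05 was found for 19 of the 37, against 35.8% of all genes. ERCC6 and MUTYH passed in each of the 19 alternative analyses tried, and each of the other 9 genes failed in at least 3 of them; with the 30-week groups compared alone, ERCC6 and MUTYH were the 2 genes that passed, where 15.3% of all genes did. Without PET replicate 2, 14 of the 37 genes passed, where 34.1% of all genes did. Without control replicate 1, the library with the largest share of small noncoding RNAs, 3 passed (DDB2, ERCC6 and MUTYH), where 14.9% of all genes did, and the median log2 fold change of the 37 genes was 0.17.

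**Figure D1:**
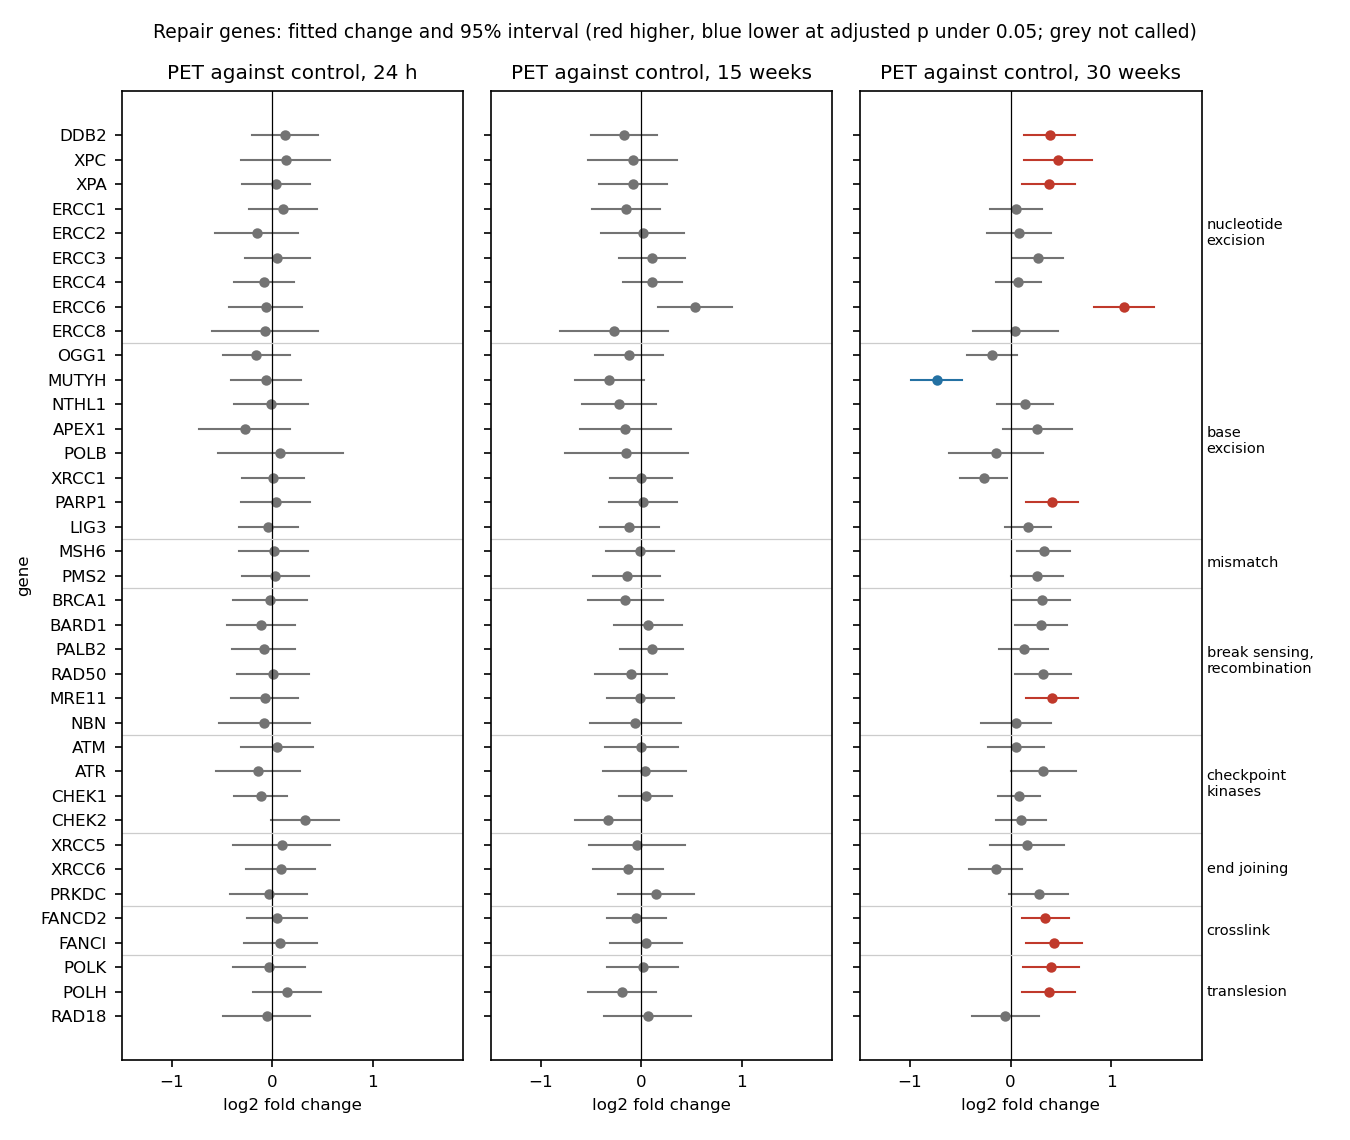
Fitted log2 fold change (points) with 95% interval (lines) of the 37 repair genes, PET against control at 24 h, 15 weeks and 30 weeks, grouped by pathway. No gene is coloured at 24 h or 15 weeks; at 30 weeks 10 genes are red (higher) and MUTYH is blue (lower), with ERCC6 farthest to the right at 1.13.

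Nucleotide excision repair held 4 of the 10 genes that rose, and all 9 of its members had a positive change, although ERCC1, ERCC2, ERCC4 and ERCC8, which did not pass, turned negative in at least 1 alternative. The largest change of the list was that of ERCC6, which encodes CSB, the protein that recognises RNA polymerase stalled at a lesion and starts transcription-coupled repair. ERCC6 lies at chr10:49434881-49539538 (GRCh38.p14). Its level was 5.81, 8.41 and 8.30 CPM in the 3 controls at 30 weeks and 16.7, 17.1, 16.6 and 15.6 CPM in the 4 PET samples. Every PET sample was far above every control, and the PET samples differed little among themselves. The log2 fold change was 1.13 with a standard error of 0.14, a 2.19-fold difference (edgeR, adjusted p = 2.34e-05).

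The levels of ERCC6 at the other times can be set beside this difference. Mean levels were 40.3 CPM in control and 38.5 CPM in PET cells at 24 h, 24.2 and 35.0 CPM at 15 weeks, and 7.51 and 16.5 CPM at 30 weeks. Mean levels were thus lower at 30 weeks than at 24 h in both the control and the PET cells. That step was not tested, and it crosses the batches, so that time and batch cannot be told apart. The mean in the PET cells was the higher at both long times. At 15 weeks the controls were at 24.3 and 24.1 CPM and the PET samples at 32.1 and 38.0 CPM, without overlap, but the difference of 0.53 on the log2 scale did not pass (edgeR, adjusted p = 0.788) and passed only when the 15-week groups were compared alone.

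The promoter window of ERCC6 is shown because the gene had the largest rise, and that of DDB2 because it is a called lesion recogniser with 3 copies of a common promoter motif. The sequences come from RefSeq (GRCh38.p14) and give the 250 bases before the outermost listed start of the gene, 5′ to 3′ on the gene's own strand, with the motif CCAAT in capitals. The ERCC6 window is chr10:49539539-49539788 on the minus strand, and the DDB2 window is chr11:47214204-47214453 on the plus strand.
ERCC6: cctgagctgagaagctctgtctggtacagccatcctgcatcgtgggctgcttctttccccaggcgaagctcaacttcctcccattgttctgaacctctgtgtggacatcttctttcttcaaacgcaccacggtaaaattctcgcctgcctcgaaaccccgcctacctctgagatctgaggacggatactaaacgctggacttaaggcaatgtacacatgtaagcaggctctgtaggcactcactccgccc
DDB2: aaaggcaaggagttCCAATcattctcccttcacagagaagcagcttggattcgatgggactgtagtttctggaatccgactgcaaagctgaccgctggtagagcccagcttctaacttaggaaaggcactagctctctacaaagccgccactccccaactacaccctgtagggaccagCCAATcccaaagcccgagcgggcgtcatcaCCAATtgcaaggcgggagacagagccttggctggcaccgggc

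Promoter windows were found for 32 of the 37 genes, with the outermost start taken where several are listed, and 28 of them end at the gene's annotated start. In these windows 3 motifs were searched on both strands. CCAAT was present in 15 of the 32, against 33% of all 27305 windows of the same length and 34.7% of the 12504 windows of tested genes. GGGCGG, the GC box, was present in 21 of the 32, against 42.2% of all windows and 63.7% of those of tested genes. An E2F-type motif (TTTCGCGC, TTTGGCGC, TTTCCCGC or TTTGCCGC) was found in 2, against 2.78% of all windows and 4.25% of those of tested genes, and in 1 of them it overlapped a GC box. Of the 9 called-higher genes with a window, 2 held CCAAT and 7 held the GC box. The ERCC6 window held 1 GC box, on the opposite strand, and neither CCAAT nor the E2F type was found in it. These matches describe the letters in the window and not the binding of a factor.

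The genes that find lesions genome-wide also rose. DDB2 encodes the damage-binding subunit that recognises ultraviolet lesions in chromatin and hands them to XPC (chr11:47214454-47239217). DDB2 was at 25.8, 21.7 and 22.7 CPM in the 30-week controls and at 26.5, 33.0, 33.3 and 29.4 CPM in the PET samples. The lowest PET sample was barely above the highest control. The log2 fold change was 0.39 with a standard error of 0.12 (edgeR, adjusted p = 0.0276).

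XPC, which binds the distorted helix and recruits the repair machinery, lies at chr3:14145147-14178601. It was at 22.1, 22.3 and 33.3 CPM in the controls and at 41.1, 26.95, 38.1 and 37.7 CPM in the PET samples. Control replicate 3 was higher than PET replicate 2, so that XPC was the only called repair gene whose 30-week groups overlapped. Its log2 fold change was 0.47 with a standard error of 0.16 (edgeR, adjusted p = 0.044).

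XPA verifies the lesion and holds the repair complex in place (chr9:97654398-97697340). Its level was 17.2, 17.7 and 15.9 CPM in the controls and 19.0, 25.9, 21.4 and 21.8 CPM in the PET samples, all above the controls. The log2 fold change was 0.38 with a standard error of 0.12 (edgeR, adjusted p = 0.0374). NCBP1 overlaps XPA over 19351 bases and had a log2 fold change of 0.45 (edgeR, adjusted p = 0.00413), and since the counting by strand is not given in the sources used here, the reads of overlapping genes may not be separated. Of the 40 tested genes that flank XPA, 31 had a positive change with a median of 0.37 on the log2 scale, close to the change of XPA itself. The median over the other 678 tested genes of chromosome 9 was 0.19, and 8497 of all 16740 genes tested had a positive change.

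The remaining genes of this pathway did not pass. The helicase subunit ERCC3 (XPB) of TFIIH was higher in every PET sample than in every control, at 52.2, 65.8 and 70.1 CPM against 80.8, 70.9, 80.4 and 70.6 CPM, with a log2 fold change of 0.27 (edgeR, adjusted p = 0.109). The other TFIIH helicase ERCC2 (XPD) had a log2 fold change of 0.085, and the subunits of the nuclease that cuts 5′ of the lesion, ERCC1 and ERCC4 (XPF), of 0.052 and 0.078. ERCC8 (CSA), the partner of ERCC6 in transcription-coupled repair, had a change of 0.046 with a 95% interval of -0.38 to 0.47 and was the least abundant of the 37 genes per length, at 1.86 CPM per kilobase of transcript.

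Base excision and single-strand break repair held 1 called rise and 1 called fall, and the fitted change was positive in 4 of its 8 genes and negative in 4. MUTYH, the glycosylase that removes adenine mispaired with 8-oxoguanine, lies at chr1:45329242-45340440. Its level was 15.6, 16.2 and 16.9 CPM in the 30-week controls and 10.7, 10.2, 8.62 and 9.61 CPM in the PET samples. The groups were well separated, with a log2 fold change of -0.73, a standard error of 0.12 and a fold of 0.601 (edgeR, adjusted p = 0.000342).

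The difference in MUTYH coincided with a high level in the 30-week controls. Mean levels were 9.05 and 8.68 CPM in control and PET cells at 24 h, and 10.7 and 8.58 CPM at 15 weeks, where both PET samples (9.15 and 8.02 CPM) were below both controls (10.8 and 10.7 CPM) with a log2 fold change of -0.32 (edgeR, adjusted p = 1). The PET cells at 30 weeks, with a mean of 9.76 CPM, lay near the levels of batch 1, whereas the 30-week controls at 16.2 CPM lay above every other sample. Setting the 30-week levels beside batch 1 crosses the batches, so these values do not show which of the 30-week groups moved. Among the 40 tested genes flanking MUTYH, 14 were called lower and 0 higher, with a median log2 fold change of -0.35. Its divergent neighbour TOE1, which overlaps it over 271 bases, had a log2 fold change of -0.28 (edgeR, adjusted p = 0.078).

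PARP1 was the gene of this pathway that rose. It encodes the enzyme that binds nicked DNA and builds poly(ADP-ribose) chains to recruit repair proteins (chr1:226360691-226408093). PARP1 was at 213.5, 267 and 292 CPM in the controls and 370.3, 307, 367 and 325 CPM in the PET samples, without overlap. The log2 fold change was 0.41 with a standard error of 0.12 (edgeR, adjusted p = 0.024).

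The other genes of base excision repair did not pass at 30 weeks. XRCC1, the scaffold that brings PARP1, polymerase and ligase together, was lower in every PET sample than in every control, at 32.4, 27.3 and 33.9 CPM against 26.5, 24.2, 27.1 and 26.1 CPM, with a log2 fold change of -0.26 (edgeR, adjusted p = 0.0947). OGG1, which removes 8-oxoguanine, had a change of -0.18, and NTHL1, which removes oxidised pyrimidines, of 0.14. APEX1, the endonuclease that cuts at the vacated site, had a change of 0.27 with a 95% interval of -0.077 to 0.61, and LIG3, which seals the nick, of 0.17. POLB, the gap-filling polymerase, was at 21.2 to 29.5 CPM in the controls and at 16.6 to 19.2 CPM in 3 of the PET samples, while PET replicate 2 was at 37.9 CPM. Without that sample the change of POLB was -0.49 on the log2 scale and passed the test, while with it the change was -0.14.

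**Figure D2:**
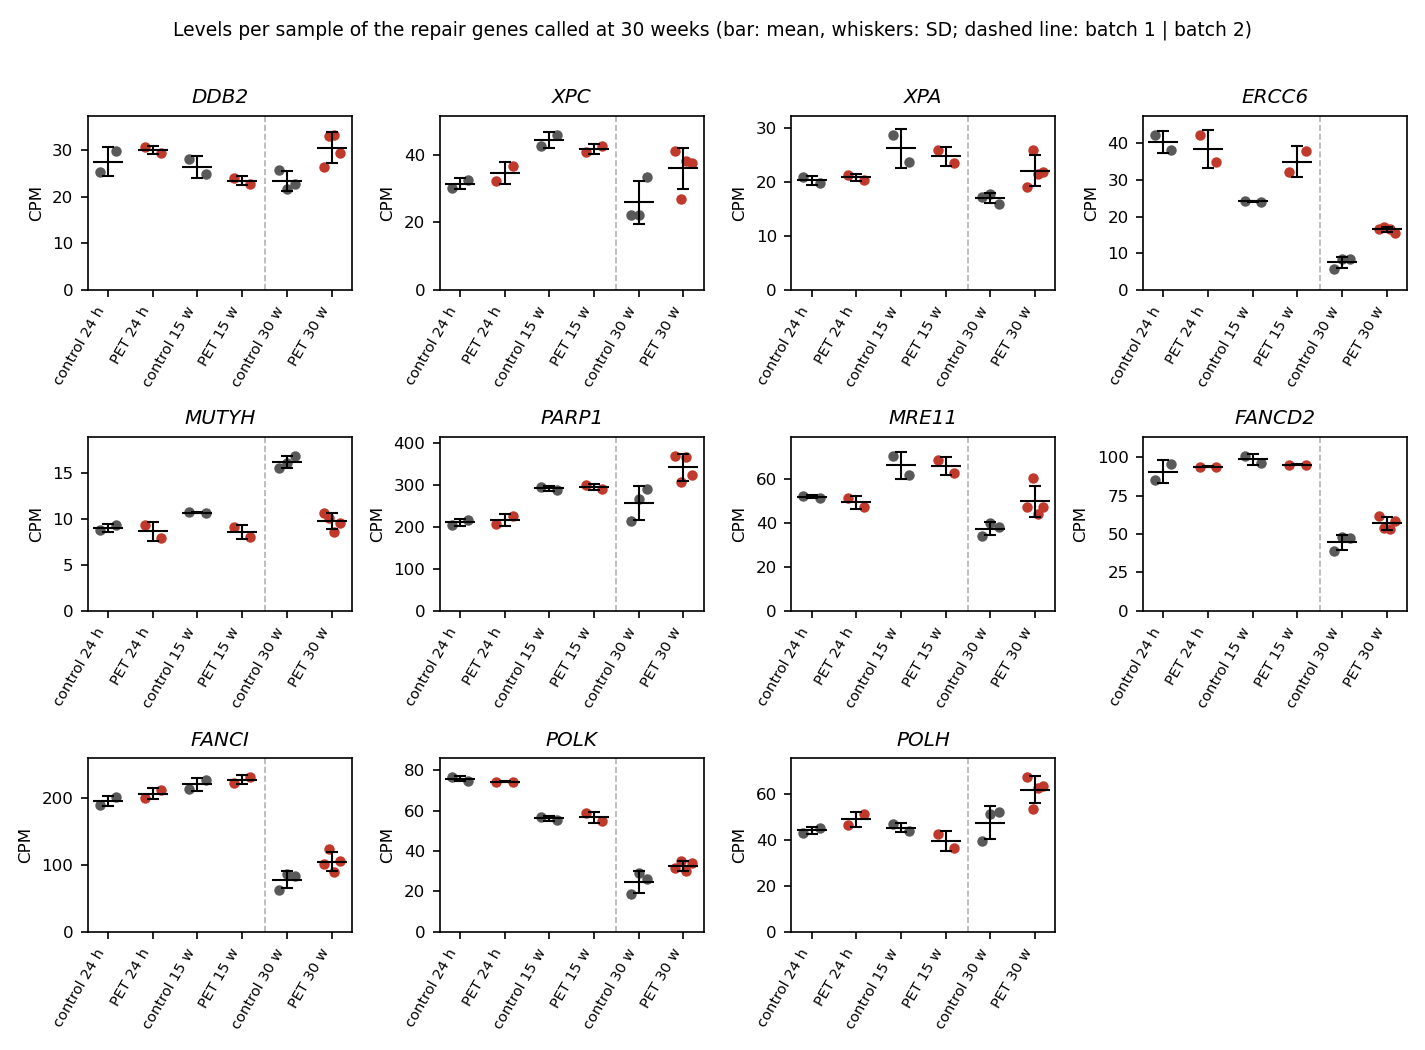
CPM per sample (points; grey control, red PET) of the 11 repair genes called at 30 weeks in all 6 conditions, with the mean (bar) and SD (whiskers); the vertical axes start at 0 and the dashed line separates the batches. MUTYH stands at 15.6 to 16.9 CPM in the 30-week controls and under 11 CPM in all other samples, while ERCC6 is lowest in the 30-week controls.

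Mismatch repair was represented by MSH6, which recognises mismatched bases, and PMS2, which nicks the strand to be repaired. Both had a positive change and an unadjusted p under 0.05, but neither passed over all genes. MSH6 was at 115 to 135 CPM in the controls and 135 to 191 CPM in the PET samples, with a log2 fold change of 0.33 (edgeR, adjusted p = 0.0642). PMS2 was at 13.6 to 18.7 CPM in the controls and 19.1 to 20.6 CPM in the PET samples, without overlap, with a change of 0.27 (edgeR, adjusted p = 0.127). Near-identical pseudogene copies of PMS2 exist in the genome, and its counts are uncertain for that reason.

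Break sensing and homologous recombination gave 6 positive changes of 6, of which that of NBN turned negative in some alternatives, and 1 of the 6 passed. MRE11, the nuclease of the complex that binds broken ends (chr11:94415570-94512412), was at 34.0, 40.1 and 38.2 CPM in the controls and at 47.3, 60.5, 44.2 and 47.5 CPM in the PET samples. All PET samples exceeded all controls, and PET replicate 2 was the highest. The log2 fold change was 0.41 with a standard error of 0.12 (edgeR, adjusted p = 0.022).

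The partners of MRE11 differed in their values. RAD50, which tethers the ends, had a log2 fold change of 0.32 (edgeR, adjusted p = 0.0846), and NBN, which links the complex to ATM, had 0.053 with a 95% interval of -0.29 to 0.40. BRCA1, its partner BARD1 and the bridge to BRCA2, PALB2, had changes of 0.31, 0.30 and 0.13, with adjusted p of 0.111, 0.0897 and 0.455 by edgeR. The 3 genes of the sensing complex thus had fitted changes that ran from near 0 to a called rise.

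None of the 4 checkpoint kinases passed at 30 weeks, and 1 had an unadjusted p under 0.05. ATR, activated by single-stranded DNA at stalled forks, had a log2 fold change of 0.33 (edgeR, adjusted p = 0.136), and ATM, activated by double-strand breaks, had 0.053. Their downstream kinases CHEK1 and CHEK2 had changes of 0.086 and 0.11. CHEK1 was nevertheless tight, at 29.2 to 29.9 CPM in the controls and 30.0 to 32.9 CPM in the PET samples, without overlap. CHEK2 also has near-identical pseudogene copies, so that its counts are uncertain.

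End joining held the most abundant genes of the list. Averaged over all samples, XRCC6 (Ku70) stood at 340 CPM per kilobase of transcript and XRCC5 (Ku80) at 211, the 2 highest of the 37 genes, and together they form the ring that slides onto broken ends. None of the 3 end joining genes passed at 30 weeks, and none had an unadjusted p under 0.05. The log2 fold change was 0.16 for XRCC5, -0.15 for XRCC6 and 0.28 for PRKDC, the catalytic subunit of the DNA-dependent protein kinase.

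Both crosslink repair genes were higher in PET than in control cells at 30 weeks. FANCD2 and FANCI encode the paired proteins that are ubiquitinated at interstrand crosslinks and start their removal. FANCD2 (chr3:10026437-10101932) was at 39.1, 47.9 and 47.2 CPM in the controls and at 62.0, 53.9, 53.1 and 58.8 CPM in the PET samples, a log2 fold change of 0.35 with a standard error of 0.11 (edgeR, adjusted p = 0.0282). FANCI (chr15:89243979-89317259) was at 63.2, 86.5 and 83.9 CPM against 102, 124, 89.5 and 106 CPM, a log2 fold change of 0.43 with a standard error of 0.13 (edgeR, adjusted p = 0.0254). Neither gene overlapped between the groups, and control replicate 1 was the lowest sample for both.

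In translesion synthesis, both bypass polymerases rose and the ligase RAD18 did not pass. POLK, which extends past bulky adducts (chr5:75510774-75609991), was at 18.7, 29.0 and 26.3 CPM in the controls and at 31.6, 35.1, 29.9 and 33.8 CPM in the PET samples, a log2 fold change of 0.40 with a standard error of 0.13 (edgeR, adjusted p = 0.0358). POLH, which copies past ultraviolet dimers (chr6:43576185-43620523), was at 39.5, 51.2 and 52.2 CPM against 67.7, 53.7, 62.7 and 63.6 CPM, a log2 fold change of 0.38 with a standard error of 0.12 (edgeR, adjusted p = 0.0353). In both genes the lowest PET sample was only slightly above the highest control. CERT1 overlaps POLK over 1208 bases and had a log2 fold change of 0.31 (edgeR, adjusted p = 0.0391). RAD18, the ubiquitin ligase that calls these polymerases to a stalled fork, had a change of -0.050 with a 95% interval of -0.38 to 0.28.

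In all, the 30-week groups did not overlap for 14 of the 37 genes, and 27.3% of all genes tested did not overlap. In the PET samples 12 of the 14 were higher and 2 lower, where 14.3% and 13% of all genes were. Of these 14, ERCC3, PMS2, CHEK1 and XRCC1 did not pass the test.

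After 24 h of exposure no repair gene passed (edgeR, 0 of 37), and 0% of all genes tested did. No member had an unadjusted p under 0.05, where 1.65% of all genes had one, and DESeq2 and limma-voom also called 0 of the 37. The fitted changes ran from -0.27 for APEX1 to 0.33 for CHEK2, with a median of -0.014. CHEK2 was at 11.5 and 11.3 CPM in the controls and at 14.6 and 13.9 CPM in the PET samples, the smallest unadjusted p of the list at 0.056. The values of APEX1 were 76.3 and 75.8 CPM against 74.1 and 51.7 CPM, so that its change rested on 1 PET sample.

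At 15 weeks no repair gene passed either (edgeR, 0 of 37, with 0% of all genes). An unadjusted p under 0.05 was seen for 2 members, ERCC6 and CHEK2, against 4.92% of all genes, and DESeq2 and limma-voom called 0 of the 37. DESeq2 did call other genes at 15 weeks, of which 29.4% were higher in PET, but their share of all genes is not given here. The paper, which used surrogate variables, also reports differentially expressed genes at this time. CHEK2 was at 19.2 and 15.5 CPM in the controls and 12.7 and 14.8 CPM in the PET samples, a log2 fold change of -0.33 that is opposite in sign to its value at 24 h. The fitted change was positive in 14 of the 37 genes, with a median of -0.052, but in 7 without PET replicate 1 and in 18 without PET replicate 2, with medians of -0.083 and -0.009. In base excision repair 7 of the 8 genes were negative and 6 of them lower without overlap, where 22% of all genes were lower without overlap.

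The change at 30 weeks was compared with the change at 15 weeks by the difference of the 2 contrasts, which come from separate batches. None of the 37 differences passed (edgeR), against 4.74% of all genes tested, while 9 had an unadjusted p under 0.05, against 15.3% of all genes. DESeq2 and limma-voom called 0 as well, and 3 genes, DDB2, XPC and POLH, were called with edgeR once surrogate variables were added. DDB2, POLH and FANCD2 lay lower without overlap in PET cells at 15 weeks and higher without overlap at 30 weeks. At 15 weeks 14 of the 37 genes and 22% of all genes were lower without overlap. At 30 weeks 12 of the 37 and 14.3% of all genes were higher without overlap. The share of all genes with both was not counted, and the 15-week change of FANCD2 was only -0.052 on the log2 scale. For DDB2, POLH and FANCD2 the differences of the contrasts were 0.56, 0.57 and 0.40, with adjusted p of 0.141, 0.147 and 0.279 by edgeR. The step of ERCC6 was similar in size, at 0.60, with an adjusted p of 0.172 by edgeR.

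Some repair genes also differed over time in culture without exposure. Between 24 h and 15 weeks, within batch 1, 8 of the 37 genes passed in the control cells, 3 higher and 5 lower, where 24.9% of all genes did (12.7% higher and 12.2% lower). ERCC4, PARP1 and CHEK2 rose, by 0.50, 0.47 and 0.61 on the log2 scale, and ERCC6, ERCC8, APEX1, PALB2 and CHEK1 fell, by 0.74, 0.90, 0.86, 0.43 and 0.50. With any 1 of these control samples left out, 2 to 3 of the 37 genes passed, where 14.7% to 16.3% of all genes did. In the PET cells 5 genes passed, where 26% of all genes did (13.5% higher and 12.5% lower), with ERCC4, PARP1 and ATR higher and ERCC8 and APEX1 lower. With 1 PET sample left out, 2 to 3 passed, where 15.2% to 17.3% of all genes did. ERCC6 fell in the control cells but had a value of -0.14 in the PET cells, which did not pass (edgeR, adjusted p = 0.613). The comparisons over time use the samples of the exposure comparisons, and their values are therefore only set side by side.

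ERCC8 had the largest fall of the 37 genes over this period in both the control and the PET cells. Its level was 31.7 and 34.1 CPM in the 24 h controls and 17.7 and 17.6 CPM in the 15-week controls. In the PET cells it was 32.8 and 29.7 CPM at 24 h and 15.5 and 13.6 CPM at 15 weeks. All samples at 15 weeks were below all samples at 24 h, in both the exposed and the unexposed cells. In the control cells ERCC8 did not pass in any of the 4 fits with 1 replicate left out, while ERCC6 passed in 3 of them, and in the PET cells ERCC8 passed in 3 of 4.

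Between 15 and 30 weeks the differences were larger, but this step crosses the batches and the 2 cannot be told apart. In the control cells 29 of the 37 genes passed, 7 higher and 22 lower, where 50.3% of all genes passed (25.6% higher and 24.6% lower). In the PET cells 25 passed, 7 higher and 18 lower, where 46% of all genes did (23.3% higher and 22.7% lower). Of the 15 genes of break sensing, recombination, checkpoint, end joining and crosslink repair, 14 were called lower in the control cells and 14 in the PET cells, and CHEK2 was called higher in both. Of these 15 genes, FANCI had the largest change in the control cells, where it fell by 1.504 on the log2 scale (edgeR, adjusted p = 2.1e-06).

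Base excision repair went the other way over this step. In the control cells OGG1, MUTYH, NTHL1, APEX1 and XRCC1 were higher at 30 weeks, by 0.95, 0.60, 0.44, 0.86 and 0.52 on the log2 scale, and none of the 8 genes of the pathway was called lower. In the PET cells OGG1, NTHL1 and APEX1 were called higher and MUTYH was not, at 0.19 (edgeR, adjusted p = 0.299). The summed level of the 37 genes was 5509 to 5568 CPM in the 15-week controls, 3233 to 3678 CPM in the 30-week controls and 3662 to 4304 CPM in the 30-week PET samples.

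**Figure D3:**
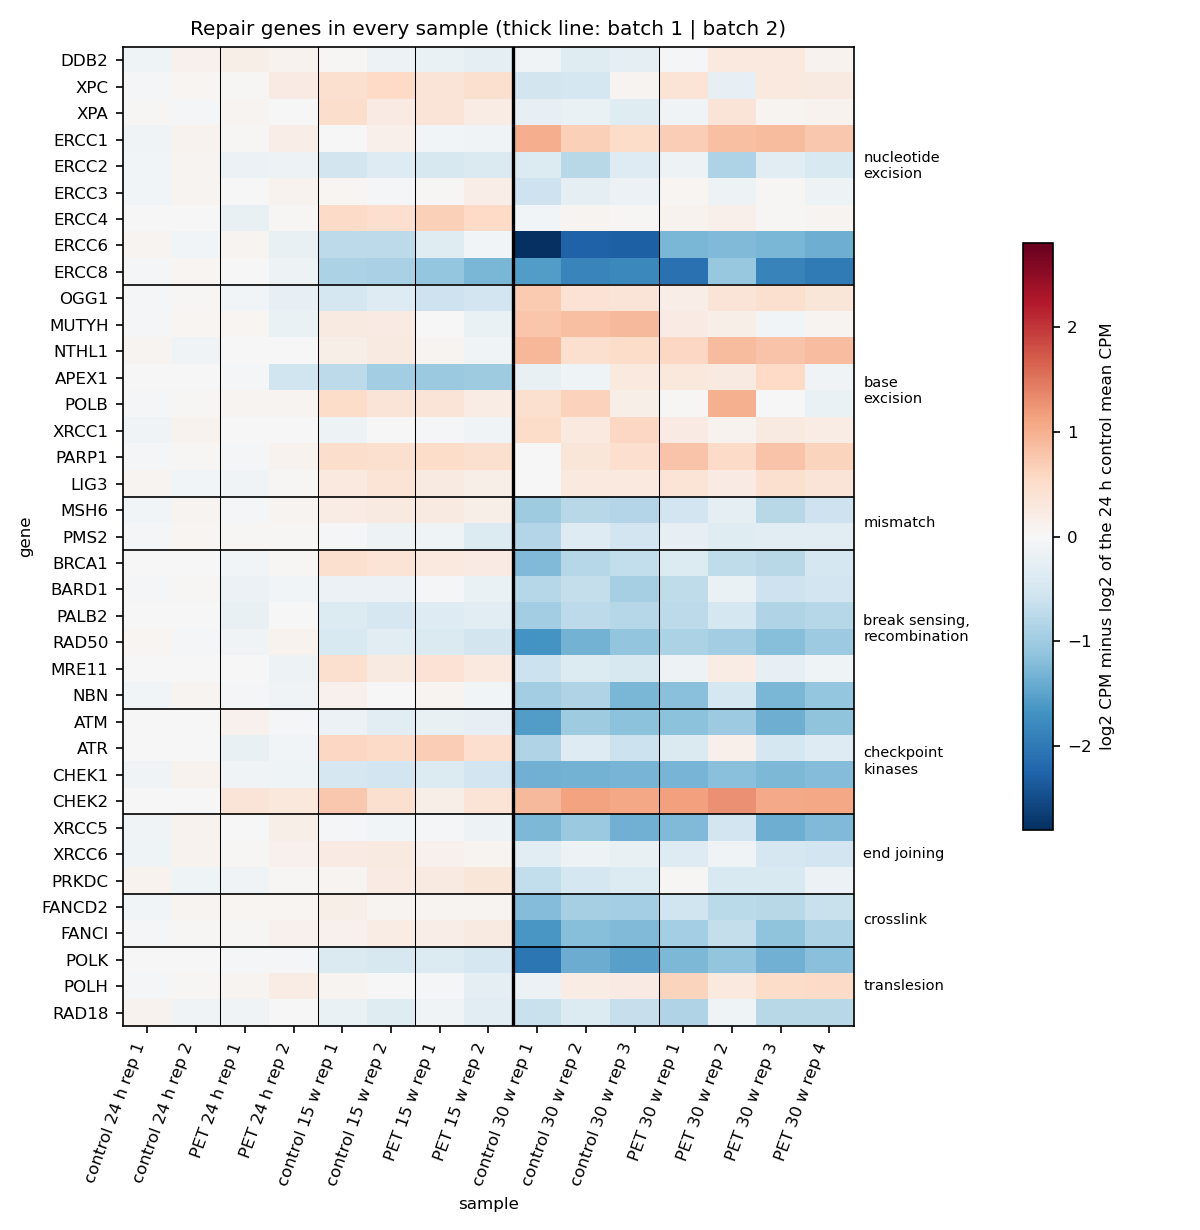
Level of each repair gene in every sample as log2 CPM minus the log2 of the mean CPM of the 24 h controls (red higher, blue lower), with genes grouped by pathway. The columns right of the thick line (30 weeks, batch 2) are blue for most genes of break repair, for POLK and for ERCC6 and ERCC8, and red for ERCC1, CHEK2 and several base excision genes.

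Transcript length moved with these differences. Among all genes tested, 94.9% had the length of a canonical transcript, and in the quartile with the shortest transcripts 5.16% were called higher and 16.6% lower in PET at 30 weeks, against 21% and 9.57% in the quartile with the longest. The repair genes are long, with 16 of the 37 in the longest quartile and 10 in the next, and these held 5 and 3 of the 10 genes that rose, while MUTYH lies in the shortest. Between the 15- and 30-week controls the order was the reverse, with 38.5% of the shortest quartile called higher and 38.5% of the longest called lower. With offsets that remove the trend with length in each sample, 6 repair genes passed at 30 weeks, where 22.9% of all genes with a length did: ERCC6, DDB2, XPA, PARP1 and NTHL1 higher and MUTYH lower. XPC, MRE11, FANCD2, FANCI, POLK and POLH then did not pass, and the median log2 fold change of the 37 genes was 0.17.

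**Figure D4:**
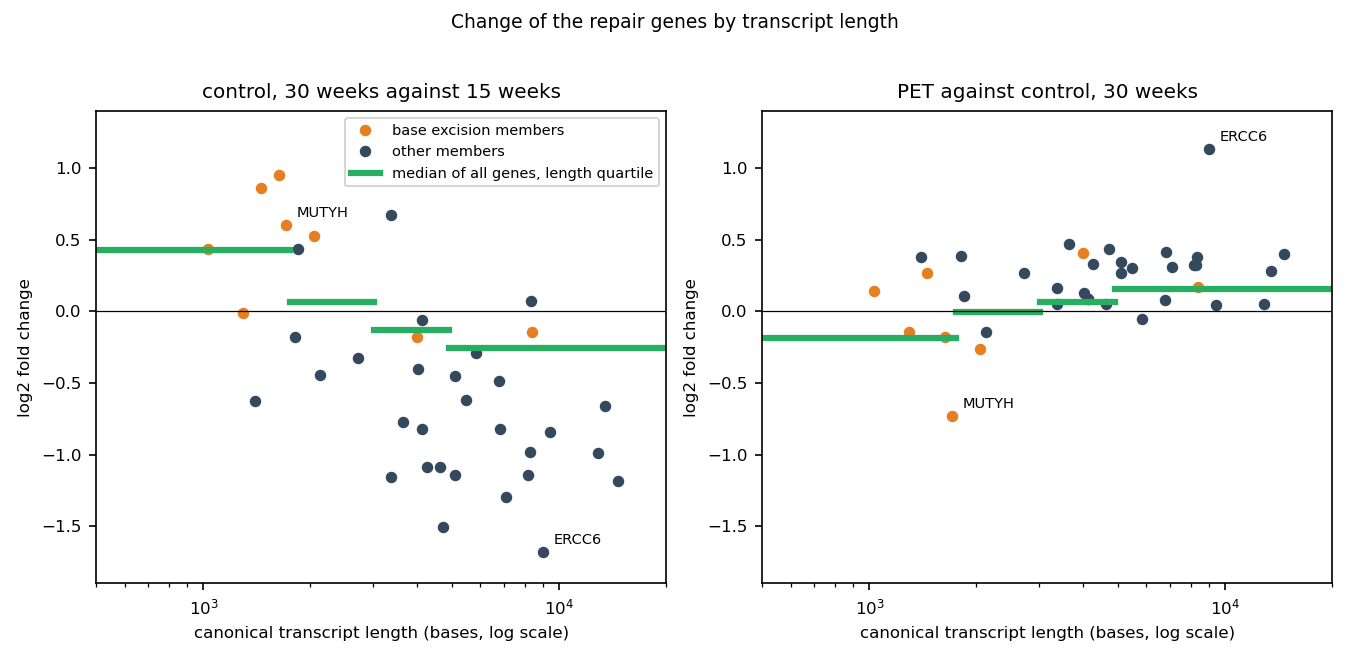
Log2 fold change of the 37 repair genes against the length of their canonical transcript (log axis), for 30-week against 15-week controls (left) and for PET against control at 30 weeks (right); green bars give the median of all genes in each length quartile, drawn only within the plotted range. The green medians fall from 0.43 to -0.26 with length on the left and climb from -0.19 to 0.15 on the right, while ERCC6 is at -1.68 (left) and 1.13 (right) and MUTYH at 0.60 and -0.73.

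A further 100 repair genes, chosen by pathway, were counted beside the 37. At 30 weeks 12 of them passed, 8 higher and 4 lower, where 23.7% of all genes passed, and their median log2 fold change was 0.023. With 1 replicate left out, 5 passed without control replicate 1 and 25 without PET replicate 2, where 14.9% and 34.1% of all genes did. The largest rise was that of MGMT, which removes alkyl groups from guanine directly, at 4.43, 2.24 and 1.93 CPM in the controls and 5.29, 7.99, 6.78 and 6.73 CPM in the PET samples, with a log2 fold change of 1.24 (edgeR, adjusted p = 0.00141). It was followed by the end joining factor NHEJ1 at 0.65, the ubiquitin ligase scaffold CUL4A at 0.62, the exonuclease EXO1 at 0.58 and RMI1 of the Bloom helicase complex at 0.50. RPA3, a subunit of the protein that coats single-stranded DNA, was lower at -0.83, as were UVSSA of transcription-coupled repair at -0.66, MAD2L2 of translesion synthesis at -0.55 and the mismatch gene PMS1 at -0.44.

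Genes that p53 activates after DNA damage passed in both directions. Of 25 tested, 8 passed at 30 weeks, where 23.7% of all genes did, and their median was -0.004 on the log2 scale. The 3 that were higher stand beside 12% of all genes, and the 5 that were lower beside 11.7%. Without control replicate 1, 4 of the 25 passed, where 14.9% of all genes did. CYFIP2, FAS and FDXR rose by 1.62, 1.13 and 0.55. TP53I3, BTG2, PHLDA3, PLK3 and CDKN1A, the cell cycle inhibitor p21, fell by 0.76, 0.71, 0.57, 0.54 and 0.37. DDB2 and XPC of the repair list are themselves known p53 targets.

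Cell cycle genes were counted beside the repair genes because several repair genes are made mainly in S phase. Of 32 such genes, 7 passed at 30 weeks, where 23.7% of all genes did, and their median log2 fold change was 0.16. Of these 7, 6 were higher and 1 lower, beside 12% and 11.7% of all genes, and 3 of the 32 passed without control replicate 1. MKI67, CENPF, MCM6, TPX2 and KIF11 rose by 0.81, 0.77, 0.54, 0.53 and 0.46, and CDC20 fell by 0.39. The 16 mitosis genes summed to 2481 to 2745 CPM in the 30-week controls and to 2794 to 3560 CPM in the PET samples, and the 16 S phase genes to 3337 to 3664 and to 3552 to 3984 CPM. Whether the repair genes moved with the share of dividing cells was not tested.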

How the data were processed

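Adapter removal and quality filtering by the authors used Rfastp, and alignment to GRCh38 and gene counting used Rsubread (the submitters' processing notes name bcl2fastq and featureCounts); the strand setting of the counting is not given in the sources used here. The deposited file holds these raw counts for 28395 genes by Entrez number in 15 samples, and 0 columns were left unused. RNA was prepared with a stranded total RNA kit after removal of ribosomal RNA.

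Low genes were removed by filterByExpr with the 6 conditions as groups, and the rest were scaled by TMM and tested in edgeR 4.0.16 under R 4.3.3 (glmQLFit and glmQLFTest, 1 mean per condition, all 15 samples, threshold 0.05 of the Benjamini-Hochberg adjusted p over 16740 genes). Fold changes are log2 values of the fitted means, and CPM are counts divided by TMM-scaled totals. The 23143202 to 31459990 counts per library limit precision for genes of few reads, and intervals cover the spread between samples. Gene positions and promoter windows (outermost listed start of each gene) came from RefSeq (GRCh38.p14) and lengths from the canonical GENCODE transcripts.

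The 37 members and the lists of other repair, p53 target, cell cycle and marker genes were chosen with earlier results of these data known. All 37 were named, those called in an exposure comparison with the values of every sample; of each further list the 5 largest changes in each direction among called genes were named. The epithelial, fibroblast, skeletal muscle, leukocyte and endothelial markers were summed per sample. MYOD1 and CHRNA1 were chosen for naming after their values were seen.

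Alternatives were DESeq2 1.42.0, limma-voom (limma 3.58.1) with and without the 2 surrogate variables found by sva 3.50.0, edgeR with these variables, each pair of groups alone, other filters and scalings, a block for the replicate number, omission of each replicate in turn and, chosen after seeing the data, offsets for transcript length. The number of 2 surrogate variables came from the be estimator of sva, while its leek estimator gave 0. The first variable was -0.834 in PET replicate 2 at 30 weeks and -0.147 to 0.270 in the other samples. Deviations of same-numbered samples from their group means had correlations of -0.118 to 0.303 at 30 weeks, not all over 0.1. The numbers are therefore not shown to pair the samples. In groups of 2 samples the deviations mirror each other, so the check could not decide there. Replicates differed by more than sampling noise.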

Additional observations from a re-analysis of the deposited data

Results flagged for a closer look

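Of the 37 repair genes, 4 had 1 sample far from the others among the 4 PET samples at 30 weeks, by the gap to the nearest sample divided by the range of the group. The sample was PET replicate 2 each time, and it was the highest. RAD18 was at 74.5 CPM in it and at 45.3 to 47.7 CPM in the other samples (ratio 0.915), POLB at 37.9 against 16.6 to 19.2 CPM (0.877), XRCC5 at 666 against 373 to 409.8 CPM (0.876) and ERCC8 at 15.7 against 7.68 to 8.93 CPM (0.843). Dixon's critical ratio at 95% is passed by chance in about 1 of 20 groups, and 4 of 37 passed it here. When the lowest and the highest sample of each gene were compared, replicate 2 had the larger gap to its neighbour for 22 of the 37 genes. It was the highest in 16 and the lowest in 6.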

How the results depend on the processing

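The count of repair genes called at 30 weeks (11) was 18 by limma-voom with surrogate variables, 2 with the 30-week groups compared alone and 6 with offsets for transcript length. With 1 replicate left out it ran from 3 (without control replicate 1) to 14 (without PET replicate 2). It was 6, 7 and 6 without PET replicates 1, 3 and 4. The share of all genes called moved as well. It was 23.7% in the main fit, 15.3% with the groups alone and 22.9% of genes with a length under the offsets. Without control replicate 1 it was 14.9%, and without PET replicate 2 it was 34.1%. How much of the movement of the counts was particular to the lists was not tested. For the other alternatives the share of all genes is not given in this section, so those counts describe the lists only. With the replicate number as a block the count was 7, since DDB2, XPA, FANCD2 and POLH did not pass; the numbers are not shown to pair the samples. The 15-week count (0) was 1 with the groups compared alone. The difference between the 30-week and the 15-week change (0 genes) gave 3 with surrogate variables in limma-voom and 3 in edgeR, and 0 to 2 with 1 replicate left out (2 without PET 30-week replicate 2).

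Between 24 h and 15 weeks, the control count (8) was 16 and 16 with surrogate variables in limma-voom and edgeR, 21 with the groups alone and 2 to 3 with 1 replicate of either group left out. The PET count (5) was 8 by DESeq2, 13 and 12 with surrogate variables, 17 alone, 10 with length offsets and 2 to 3 with 1 replicate left out. The shares of all genes with 1 replicate left out are given in the Results. For the other alternatives of these counts they are not given, so a change particular to repair genes cannot be read from them. The counts from 15 to 30 weeks (29 and 25) stayed within 1.5 times of these values in every alternative tried.

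Of the further lists at 30 weeks, the other repair genes (12) gave 23 and 24 with surrogate variables in limma-voom and edgeR, 5 alone, and 5 (without control replicate 1) to 25 (without PET replicate 2) with 1 replicate left out. The p53 targets (8) gave 4 (without control replicate 1) to 12 (without PET replicate 2). The cell cycle genes (7) gave 11 and 11 with surrogate variables, 3 alone and 3 (without control replicate 1) to 9 (without PET replicate 2) with 1 replicate left out.

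Across the alternatives tried, the log2 fold change at 30 weeks turned in sign for 8 repair genes, none of them called. ERCC8 was -0.006 by limma-voom, -0.086 and -0.103 with surrogate variables in limma-voom and edgeR, -0.083 with length offsets and -0.242 to 0.159 with 1 replicate left out. NBN was -0.030 and -0.028 with surrogate variables, -0.030 with length offsets and -0.145 to 0.153 with 1 replicate left out, and ATM was -0.009, -0.017, -0.066 and -0.085 to 0.173. ERCC4 was -0.055 with length offsets. With 1 replicate left out, ERCC1 ran from -0.049 to 0.214, ERCC2 from -0.039 to 0.209, XRCC5 from -0.063 to 0.254 and RAD18 from -0.249 to 0.045. Apart from the smaller numbers of samples in the fits of groups alone and with a replicate left out, the cause of these differences was not tested.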

Other observations

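Levels per length differed widely within a pathway in the 24 h controls. Among the excision genes, APEX1 stood at 52.4 and PARP1 at 53.2 CPM per kilobase of transcript, while MUTYH stood at 5.30, LIG3 at 4.75 and ERCC4 at 2.44. MSH6 was at 54.0 and PMS2 at 4.70. The translesion polymerases POLK and POLH were close to each other, at 5.19 and 5.28.

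The genes on either side of a repair gene moved with it at some loci and not at others. At 30 weeks, the 40 tested genes around PARP1 had a median log2 fold change of 0.21, with 8 called higher and 0 lower, and those around ATM had 0.23, with 31 of 40 positive, although ATM itself was at 0.053. Around ERCC6, the median was 0.13 against the gene's own 1.13. Around FANCI, POLH and DDB2 the medians were negative, at -0.11, -0.13 and -0.060, while the genes themselves rose. Neighbouring genes share a chromosome region and were not tested as a group.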
